A study of Rattus norvegicus with 6 samples.

Results

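The genes described here are 8 of the 15227 genes in the count tables of 6 rat brain libraries: Fkbp5, Tsc22d3, Per1, Sgk1, Zbtb16, Klf9, Ddit4 and Pdk4. They were picked by name as genes that glucocorticoid hormones are known to induce. The list had 9 names, and the remaining one, the glucocorticoid receptor gene Nr3c1, has no row in the tables and is not analysed here. The list was drawn up with the levels of these genes in these libraries already known, so their differences between the groups are given as measurements with no test. The libraries were single-cell suspensions of the cerebral hemisphere of rats, digested with trypsin and DNase and captured in droplets. In the carbon monoxide group (CO, 3 libraries) the animals breathed 1000 ppm carbon monoxide for 40 minutes and then 3000 ppm for 20 minutes, and poisoning was judged by impaired consciousness and a high carboxyhaemoglobin level. The negative control group (NC, 3 libraries) was not exposed. Strain, sex, age and the time from exposure to tissue collection are not given in the sources used here.

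Glucocorticoids are steroid hormones that the adrenal cortex releases under stress and in a daily rhythm. They cross cell membranes and bind the glucocorticoid receptor, which leaves its chaperone complex, enters the nucleus and binds DNA at glucocorticoid response elements, often in introns or far from the start of the gene it acts on. In the brain the receptor is present in neurons, glia, vascular cells and immune cells, and the genes it induces differ between them. Most of the genes described here also answer to other signals: Ddit4 to low oxygen and to amino acid or energy stress, Per1 to cAMP and light, Sgk1 to osmotic change, and Pdk4 to fasting and fatty acids.

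Start-site windows from the RefSeq promoter table (build GRCr8, not the Rnor_6.0 build of the counts) show what lies next to these genes. The windows run from 250 bases before to 50 after each annotated start, and 7 of the 8 genes matched it with 11 windows in all. Zbtb16 had no entry. The glucocorticoid response element, AGAACA followed by 3 bases of any kind and the reverse complement of AGAACA, was found with at most 2 mismatches in none of the 11 windows, on either strand, against 1.87% of all 33469 windows in the table. Neither AGAACA alone (20.7% of all windows), nor the cAMP response element TGACGTCA (1.83%), nor the E-box CACGTG (6.42%) was found in the members' windows. The Fkbp5 and Tsc22d3 stretches are shown because these are the classical receptor targets of the set, each as the 250 bases before a start on the minus strand, at chr20:6543556-6543805 and chrX:109010035-109010284. Capitals in the Tsc22d3 stretch mark TGACG, the core of the cAMP element, which 21.2% of all windows hold. That stretch belongs to 1 of several annotated Tsc22d3 starts.
Fkbp5: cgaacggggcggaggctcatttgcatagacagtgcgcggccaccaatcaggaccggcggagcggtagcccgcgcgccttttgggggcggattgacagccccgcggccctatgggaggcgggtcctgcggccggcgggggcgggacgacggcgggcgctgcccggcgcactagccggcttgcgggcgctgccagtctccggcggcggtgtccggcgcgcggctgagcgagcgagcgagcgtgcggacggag
Tsc22d3: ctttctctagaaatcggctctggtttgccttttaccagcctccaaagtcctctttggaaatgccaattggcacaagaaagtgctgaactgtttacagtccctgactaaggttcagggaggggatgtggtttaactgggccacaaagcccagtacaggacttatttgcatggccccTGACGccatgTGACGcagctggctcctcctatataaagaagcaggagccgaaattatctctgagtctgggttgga
The following short sites are shown as the remaining matches, with the matched letters in capitals. With 3 mismatches allowed, Per1 held a match to the glucocorticoid response element (chr10:54304167-54304191, plus strand), as did 14.7% of all windows. Ddit4 held ACGTG, the core of the hypoxia response element found in 19.3% of all windows (chr20:28437166-28437180, minus strand), and Klf9 held TGACG and ACGTG overlapping each other (chr1:230126562-230126578, plus strand).
Per1: gaaacAGAACTTACCTTTCTactgc
Ddit4: tgcgaACGTGcgccc
Klf9: gattgTGACGTGatggg
A match in these letters describes the window only, and windows without one say nothing of elements elsewhere in the gene.

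The 6 libraries held 39494470 to 47322264 unique transcript counts (UMIs) each. After filters 19664 NC cells (median 4755 UMIs) and 16878 CO cells (median 5556 UMIs) were kept, and clusters were named X-like from marker genes. 11 cell classes had at least 30 cells in every library and were compared, and the 8 genes themselves were not used to form the clusters. Within a class the 3 libraries of a group differed, on average over genes, hardly more than cells drawn from a single pool: the mean ratio of the between-library to the within-library mean square was 0.938 to 1.18. Single members went well above that, with 5.43 for Klf9 in NC microglia-like cells, 5.14 for Sgk1 in CO T or NK-like cells, 5.05 for Tsc22d3 in CO endothelial-like cells and 4.87 for Sgk1 in NC pericyte-like cells. Fkbp5 reached 3.84 in NC choroid plexus-like, 3.82 in CO endothelial-like, 3.81 in CO ependymal-like and 3.36 in CO astrocyte-like cells. The libraries of a group were therefore counted as 1 sample, although the series text speaks of 3 rats per group, and no p-value is given. Levels are CPM, the UMIs of a gene scaled to a common class total, and each log2 ratio of CO over NC carries a 95% exact binomial interval that covers counting error only. A gene is called apart in a class where all 3 CO libraries lay above, or all below, the 3 NC libraries.

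Several classes held different cells in the groups, which touches every ratio taken in them. The endothelial-like class was mostly cluster 3 in NC (2576 of 2787 cells) and mostly cluster 7 in CO (1850 of 1920 cells). The choroid plexus-like class had a median of 40122 UMIs per cell in NC and 1711 in CO, where cluster 15, a group of cells with few UMIs, supplied 495 of 668 cells. In the oligodendrocyte-like class 1635 of 4969 NC cells but 151 of 1536 CO cells came from cluster 8, whose cells had a median of 871 UMIs. In the astrocyte-like class cluster 17, with a median of 767 UMIs, supplied 145 of 499 NC and 345 of 655 CO cells, and the class medians were 3027 and 1606 UMIs. A cluster led by S100a9 had no class name, as it had 2 leading markers each of neutrophils and of monocyte or dendritic cells. Its neutrophil markers (10 of 11 above 0, Ly6g6e at 0) summed to 208 to 1725 CPM in the NC libraries and 25604 to 50389 CPM in the CO libraries. Its monocyte or dendritic markers (10 of 13 above 0, Xcr1, Ace and Siglec1 at 0) summed to 9508 to 11951 CPM and 11194 to 13520 CPM. The ratios of this cluster therefore set unlike cells side by side. The pericyte-like class held much endothelial RNA in both groups. Its 12 endothelial markers, all above 0, summed to 11088 CPM in NC and 11187 CPM in CO. Its 10 pericyte markers summed to 10200 and 9512 CPM. In endothelial-like cells the endothelial markers summed to 21607 and 19917 CPM, so pericyte-like ratios are not separate from endothelial ones. The part of these differences and of such RNA in the ratios below was not tested beyond the values given.

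Fkbp5 (ENSRNOG00000022523) encodes FKBP51, a co-chaperone of the receptor complex that lowers the receptor's affinity for hormone and so forms a feedback loop. Its CO over NC ratio was above 0 in all 11 classes. It was apart, and higher in CO, in 10 of them and at least 2-fold higher in 8, against a background of 11.7% to 25.2% of all genes higher in CO and apart, by class, and 2.68% to 12% at least 2-fold higher. In microglia-like cells the 3 NC libraries had 53.6, 62.2 and 63.3 CPM and the 3 CO libraries 227, 222 and 229 CPM. The CO libraries there lay close together and far above every NC library, a log2 ratio of 1.92 (1.85 to 1.99). In astrocyte-like cells the NC libraries had 40.2, 48.9 and 30.6 CPM and the CO libraries 269, 421 and 408 CPM. That was a 9.40-fold difference (log2 ratio 3.23, interval 2.87 to 3.62), the widest of any member and class, and it was 3.31 within cluster 13, which held 767 of the 797 Fkbp5 UMIs of the class in CO. Oligodendrocyte-like cells had 40.4, 45.2 and 42.8 CPM in NC and 128, 136 and 116 CPM in CO, a ratio of 1.57 (1.47 to 1.67).

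**Figure D1:**
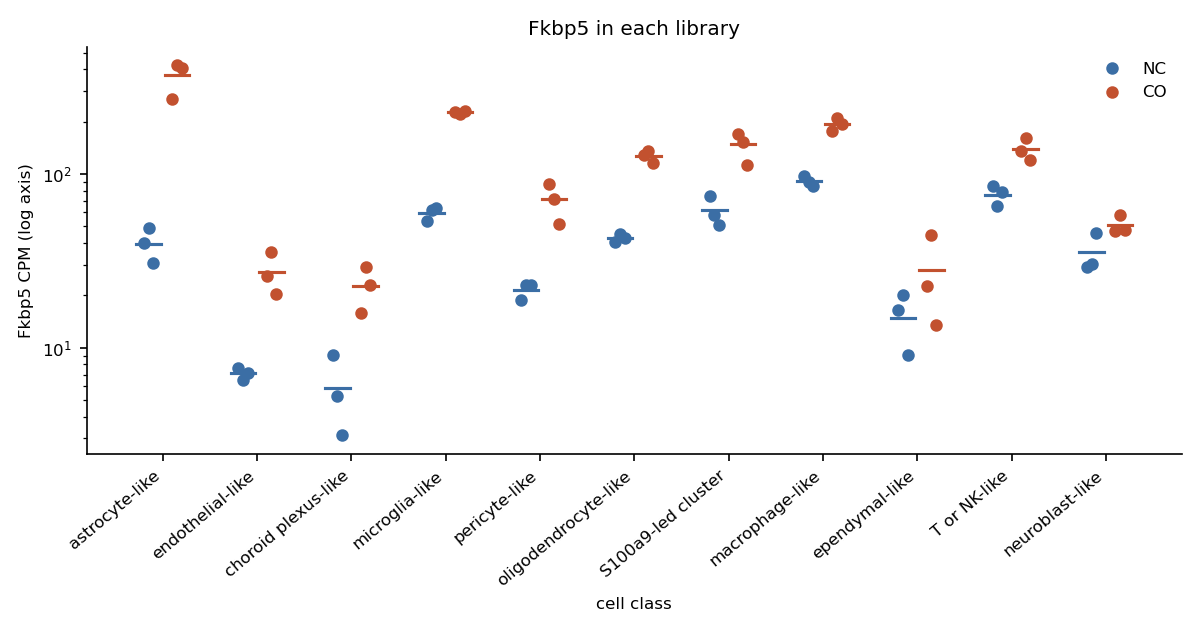
Fkbp5 level (CPM, log axis) in each library (points) and in the summed group (lines) for 11 cell classes, NC in blue and CO in orange, ordered by the log2 ratio. The CO points lie above all NC points in every class except the ependymal-like one, from 3.23 in astrocyte-like to 0.52 in neuroblast-like cells on the log2 scale.

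In the vessel wall Fkbp5 was low in NC and higher in CO. Endothelial-like cells had 7.68, 6.53 and 7.11 CPM in NC and 25.8, 35.6 and 20.4 CPM in CO (log2 ratio 1.94, interval 1.64 to 2.25). Within cluster 7 alone the levels were 6.47 CPM, from 2 NC UMIs, and 14.7 CPM (1.18, lower bound -0.69). Pericyte-like cells had 18.8, 22.8 and 22.8 CPM in NC and 87.9, 71.4 and 51.7 CPM in CO (1.74, interval 1.42 to 2.08), and the ratio was 1.85 and 1.76 in their 2 clusters. Choroid plexus-like cells had 9.03, 5.24 and 3.14 CPM in NC and 15.9, 29.1 and 22.8 CPM in CO, a ratio of 1.94 that was 1.20 (lower bound 0.79) within cluster 16, the deeper of its clusters (median 47084 UMIs). The smaller ratios were in macrophage-like (1.09), ependymal-like (0.92, groups overlapping), T or NK-like (0.87) and neuroblast-like cells (0.52), and the S100a9-led cluster had 1.26. In neuroblast-like cells thinned to equal depth the sign turned, to -0.08.

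The order of the classes by Fkbp5 differed between the groups. In NC macrophage-like cells were highest (91.1 CPM), followed by T or NK-like cells (75.8), the S100a9-led cluster (62.0) and microglia-like cells (59.8), and those 3 neighbours overlapped in their library ranges. Oligodendrocyte-like (42.7), astrocyte-like (39.6) and neuroblast-like cells (35.4) overlapped too, and endothelial-like (7.13) and choroid plexus-like cells (5.89) were lowest. In CO astrocyte-like cells came first (373 CPM), above microglia-like (226) and macrophage-like cells (194) with no overlap between these neighbours. Ependymal-like (28.1), endothelial-like (27.4) and choroid plexus-like cells (22.7) stood at the bottom and overlapped. Over all kept cells Fkbp5 was 43.5 CPM in NC and 145 CPM in CO. If each class had kept its NC level and only the class shares had moved to those of CO, the log2 ratio over all cells would have been 0.07, against 1.73 measured.

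Free RNA from microglia can reach droplets of other cells, so the markers of microglia were read in each class as well. In endothelial-like cells all 12 microglia markers were above 0 and summed to 608 to 762 CPM in the NC libraries and 222 to 699 CPM in the CO libraries. Their summed level was 3.37% of that in microglia-like cells in NC and 1.85% in CO, while Fkbp5 stood at 12.1% and 11.9% of its microglia-like level. In astrocyte-like cells 10 of 12 markers were above 0 (Siglech and P2ry13 at 0), summing to 239 to 463 CPM in NC and 669 to 965 CPM in CO. That was 1.68% and 3.91% of the microglia-like level, with Fkbp5 at 65.7% and 166%. In neuroblast-like cells 11 of 12 were above 0 (Siglech at 0), summing to 462 to 794 CPM in NC and 971 to 1515 CPM in CO, and the part of this in the Fkbp5 ratio of 0.52 was not tested. Macrophage-like cells held the most, with 10 of 12 above 0 (Siglech and Olfml3 at 0). Their sum was 30.9% of the microglia-like level in NC and 35.9% in CO, with Fkbp5 at 151% and 86.6%. In the S100a9-led cluster it was 6.45% and 10.3%, with Fkbp5 at 109% and 62.5%. The part of these markers was not tested.

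Tsc22d3 (ENSRNOG00000056135) encodes GILZ, a leucine zipper protein that restrains NF-kB and AP-1 and carries part of the anti-inflammatory action of glucocorticoids. It was higher in CO and apart in 5 classes and lower and apart in 3. By class, 11.7% to 25.2% of all genes were higher and apart and 10.6% to 24.2% lower and apart. Astrocyte-like cells had the highest ratio, with 310, 372 and 241 CPM in NC and 732, 606 and 693 CPM in CO (log2 ratio 1.14, interval 0.99 to 1.28). Microglia-like cells had 184, 191 and 179 CPM in NC and 259, 270 and 287 CPM in CO (0.56, interval 0.52 to 0.60). The CO libraries lay above the NC libraries in both, by 2.20-fold and 1.48-fold. Ependymal-like (0.65), macrophage-like (0.53) and endothelial-like cells (0.31) were higher in CO as well. Within endothelial-like cluster 7, with 59 NC cells, the Tsc22d3 ratio was 1.14 (interval 0.86 to 1.43). Neuroblast-like cells were lower, at 125, 106 and 127 CPM in NC and 85.6, 73.2 and 81.6 CPM in CO (-0.59, interval -0.77 to -0.40), and the choroid plexus-like class (-0.35) and the S100a9-led cluster (-0.45) were lower too. Oligodendrocyte-like (-0.15), T or NK-like (-0.25) and pericyte-like cells (0.22) overlapped between groups. In choroid plexus-like cells the Tsc22d3 ratio was -0.92 (interval -1.15 to -0.68) within cluster 16, the deeper cells, but 1.01 in cells thinned to equal depth.

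Zbtb16 (ENSRNOG00000029980) encodes PLZF, a zinc finger transcription factor that glucocorticoids induce in many tissues and that also marks innate-like T cells. It was apart in every one of the 11 classes, higher in CO in 9 and lower in 2. The shares of all genes apart by class were 11.7% to 25.2% higher and 10.6% to 24.2% lower. In oligodendrocyte-like cells the NC libraries had 105, 103 and 109 CPM and the CO libraries 285, 319 and 296 CPM (2.83-fold, log2 interval 1.44 to 1.56). In pericyte-like cells they had 178, 199 and 191 CPM and 514, 414 and 545 CPM (1.37, interval 1.26 to 1.48). In endothelial-like cells they had 194, 167 and 162 CPM and 381, 391 and 335 CPM (1.08, interval 1.01 to 1.15). In each of these classes the CO libraries were more than 2-fold above NC when summed. Neuroblast-like (0.94), macrophage-like (0.91), ependymal-like (0.86), astrocyte-like (0.85) and microglia-like cells (0.84) followed, the last from a low level of 6.78 CPM in NC and 12.2 CPM in CO. The ependymal-like value rested on 19 NC and 47 CO UMIs and was -1.18 at equal depth per cell. The choroid plexus-like ratio of 2.32 was 0.45, with a lower bound of -0.37, within cluster 16.

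Zbtb16 was lower in CO in T or NK-like cells, at 39.5, 63.4 and 142 CPM in NC and 0, 29.7 and 11.5 CPM in CO (log2 ratio -2.65, interval -3.56 to -1.86). This came from 139 NC and 14 CO UMIs, and NC replicate 3 stood well above the other NC libraries. Leaving out NC replicate 3 gave -1.98, leaving out CO replicate 1 gave -2.03, and leaving out CO replicate 2 gave -3.92. The 13 T or NK markers measured were all above 0 in that class and summed to 5972 to 6561 CPM in NC and 6526 to 13038 CPM in CO. Marker lists of other cells went both ways in that class. The 11 of 12 microglia markers above 0 (Siglech at 0) summed to 629 CPM in NC and 1101 CPM in CO, with overlapping libraries. Summed neuroblast markers (98.9 and 129 CPM) and astrocyte markers (103 and 130 CPM, overlapping) were higher in CO too. Endothelial, pericyte and B cell markers were among those lower in CO. The 12 endothelial markers, all above 0, summed to 458 to 1366 CPM in the NC libraries and 134 to 224 CPM in the CO libraries. The 10 pericyte markers, all above 0, summed to 128 to 143 CPM and 0 to 14.7 CPM, and 6 of 7 B cell markers (Ms4a1 at 0) to 162 to 243 CPM and 17.2 to 73.6 CPM. Zbtb16 stood at 175 CPM in NC endothelial-like and 189 CPM in NC pericyte-like cells, and the part of such RNA in the T or NK-like ratio was not tested. The S100a9-led cluster was also lower (-0.80, and 0.20 at equal depth).

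Klf9 (ENSRNOG00000014215), a Krüppel-like repressor that also answers to thyroid hormone and takes part in oligodendrocyte and neuronal maturation, differed little in most classes. It was higher in CO and apart in endothelial-like cells (315 and 383 CPM, log2 ratio 0.28), pericyte-like cells (313 and 378 CPM, 0.27) and oligodendrocyte-like cells (227 and 261 CPM, 0.20). Within endothelial-like cluster 7 the ratio was 0.72 (interval 0.38 to 1.07). None of the Klf9 class ratios in the main setting reached 2-fold above NC. Single clusters did, with 1.38 (interval 0.79 to 2.01) in microglia-like cluster 4 and 1.08 (0.45 to 1.77) in neuroblast-like cluster 23. In choroid plexus-like cells the highest value under another processing was 1.40. Klf9 was lower in the S100a9-led cluster, with 90.6, 127 and 167 CPM in NC and 60.6, 55.3 and 4.68 CPM in CO (-1.57, and -2.22 without CO replicate 1). Over all kept cells Klf9 was lower in CO (-0.22), while the class shares alone would have given -0.37.

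Per1 (ENSRNOG00000007387), a negative arm of the circadian clock that the receptor induces rapidly, was scarce, at no more than 17.3 CPM in any class that it entered. A gene entered a class with at least 30 UMIs over both groups, and Per1 did so in 8 of 11. All 8 ratios were above 0, and 4 classes were apart. In these 8 classes 13.6% to 25.2% of all genes were higher in CO and apart. Microglia-like cells had 5.62, 6.19 and 6.32 CPM in NC and 12.8, 10.8 and 10.6 CPM in CO (log2 ratio 0.91, interval 0.69 to 1.15). Macrophage-like cells had 10.1, 13.1 and 6.29 CPM in NC and 19.8, 16.8 and 15.8 CPM in CO (0.82, interval 0.19 to 1.47). Oligodendrocyte-like cells had 6.54, 5.93 and 6.47 CPM in NC and 11.2, 7.88 and 10.8 CPM in CO (0.66, interval 0.35 to 0.96). In these classes the lowest CO library stood above the highest NC library. In choroid plexus-like cells Per1 had 8 UMIs in NC and 37 in CO (2.69, and 5.06 without NC replicate 1). Endothelial-like (0.15), pericyte-like (0.08), astrocyte-like (0.55, and 1.66 without NC replicate 3) and neuroblast-like cells (0.54) overlapped. The T or NK-like class, under the minimum, had 3 NC and 17 CO UMIs of Per1.

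Sgk1 (ENSRNOG00000011815), a kinase related to AKT that regulates ion channels and transporters and is induced by both glucocorticoids and cell stress, was the most counted member, with 116602 NC and 113317 CO UMIs. Oligodendrocyte-like cells had 731, 745 and 735 CPM in NC and 1284, 1347 and 1220 CPM in CO (log2 ratio 0.80, interval 0.78 to 0.83). Endothelial-like cells had 390, 311 and 346 CPM in NC and 549, 582 and 540 CPM in CO (0.67, interval 0.62 to 0.72). Within cluster 7 alone the Sgk1 ratio was 0.99 (interval 0.68 to 1.31). Pericyte-like cells had 305, 172 and 246 CPM in NC and 332, 447 and 330 CPM in CO (0.60, interval 0.50 to 0.71). The CO libraries were above NC in all 3 of these classes. Microglia-like cells, in which Sgk1 was highest, had 1874, 1992 and 2004 CPM in NC and 1702, 1676 and 1739 CPM in CO. The difference there was small and downward (-0.20, interval -0.21 to -0.18), and it was not shared by all clusters of the class: it was -0.32 in cluster 5 and 0.19 in cluster 4, where Sgk1 was at 659 CPM in NC.

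The remaining Sgk1 values overlapped between groups. In the S100a9-led cluster 3 CO libraries at 584, 792 and 173 CPM met NC libraries at 267, 218 and 108 CPM (log2 ratio 1.33). In neuroblast-like cells the ratio was -0.76, but it was -0.18 and 1.79 in clusters 9 and 23. There the NC level of cluster 28, 54 cells with a median of 1165 UMIs, was 3102 CPM. In T or NK-like cells the ratio was 0.11 and became -0.76 without CO replicate 1. Astrocyte-like cells had 0.47, with -0.77 in cluster 13, 1.72 in cluster 17 and -0.46 in cells of at least 2000 UMIs. Ependymal-like (0.43), macrophage-like (0.09) and choroid plexus-like cells (-0.27, with -0.71 in cluster 16 and 1.13 at equal depth) completed the set. In oligodendrocyte-like cells, whose Sgk1 stood at 36.8% of the microglia-like level in NC and 77.0% in CO, all 12 microglia markers were above 0, summing to 699 to 818 CPM in the NC libraries and 328 to 550 CPM in the CO libraries (3.66% and 2.09% of the microglia-like level).

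Ddit4 (ENSRNOG00000057078) encodes REDD1, an inhibitor of mTOR complex 1 that both glucocorticoids and hypoxia induce. It was higher and apart in 1 class, the oligodendrocyte-like one, with 373, 381 and 400 CPM in NC and 648, 679 and 646 CPM in CO (log2 ratio 0.77, interval 0.74 to 0.81). It was lower and apart in 4. By class, 11.7% to 25.2% of all genes were higher and apart and 10.6% to 24.2% lower and apart. In microglia-like cells it had 291, 335 and 302 CPM in NC and 276, 278 and 271 CPM in CO (-0.17, interval -0.21 to -0.13). In microglia-like cluster 4, however, Ddit4 was at 169 CPM in NC and 287 CPM in CO (0.76), against -0.54 in cluster 5. Neuroblast-like cells had 77.2, 82.8 and 130 CPM in NC and 72.9, 68.4 and 59.9 CPM in CO (-0.54). The choroid plexus-like class had -0.59 (-0.83 in cluster 16 and 0.92 at equal depth) and the S100a9-led cluster -0.62. Endothelial-like cells, with 516 and 524 CPM (0.02), and astrocyte-like cells (0.10) hardly differed. The groups overlapped in T or NK-like (-0.71), ependymal-like (-0.64), macrophage-like (0.19) and pericyte-like cells (0.21) too.

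Pdk4 (ENSRNOG00000009565) encodes a kinase that switches off pyruvate dehydrogenase and so shifts cells from glucose to fatty acid oxidation. Its ratio ran in opposite directions in glia. Astrocyte-like cells had 8.03, 9.78 and 12.6 CPM in NC and 40.9, 34.9 and 95.7 CPM in CO (log2 ratio 2.53, interval 1.79 to 3.35), on 17 NC and 124 CO UMIs. CO replicate 3 was the highest of these, and without it the ratio was 1.89. Microglia-like cells had 28.5, 36.7 and 33.5 CPM in NC and 22.0, 10.9 and 15.8 CPM in CO (-1.01, interval -1.15 to -0.88). No library of the groups overlapped in either class. Oligodendrocyte-like cells were higher in CO, at 45.2, 49.4 and 43.9 CPM against 76.0, 74.0 and 72.5 CPM (0.69, interval 0.58 to 0.80). Pericyte-like cells were higher too (1.11), with 1.45 in cluster 14 and -0.54 in cluster 12, and -0.64 at equal depth. Endothelial-like (-0.41) and choroid plexus-like cells (-0.50) were lower. Within endothelial-like cluster 7, however, Pdk4 had 0.19 (interval -1.05 to 1.83), on 5 NC UMIs. Macrophage-like cells overlapped (-1.63), with NC replicate 1 at 55.7 CPM and the other NC libraries at 25.4 and 24.4 CPM, and -2.70 without CO replicate 1. Ependymal-like cells held the most Pdk4 of all classes, at 356 CPM in NC and 350 CPM in CO. T or NK-like cells had 0 UMIs of Pdk4, which allows up to 3 counts per group.

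**Figure D2:**
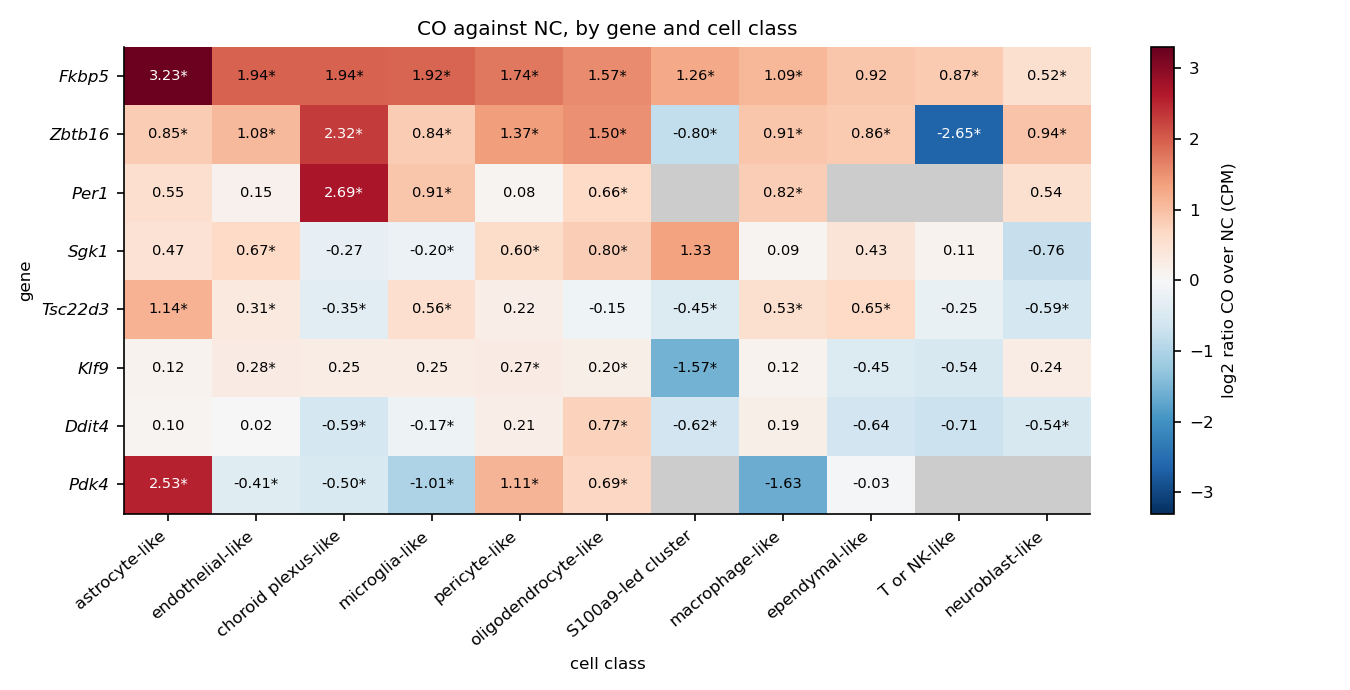
Log2 ratio of CO over NC (colour and number) for each of the 8 genes in the 11 classes, with a star where the 3 CO and 3 NC libraries do not overlap and grey where a gene had under 30 UMIs. Fkbp5 is above 0 in every class, while Pdk4 runs from 2.53 in astrocyte-like cells to -1.63 in macrophage-like cells.

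Read by class, oligodendrocyte-like cells had the largest number of members higher in CO with no overlap between libraries, and all 8 ratios were above 0 in astrocyte-like and pericyte-like cells. In oligodendrocyte-like cells 7 of 8 members were higher and apart and 0 lower, against 18.3% and 20.3% of all 11719 genes that entered. Their median log2 ratio was 0.73, against -0.01 for all genes, and Tsc22d3 was the member that overlapped. In endothelial-like cells 5 of 8 were higher and 1 lower (background 25.2% and 24.2%), and in pericyte-like cells 5 and 0 of 8 (17.8% and 15.9%). In astrocyte-like cells the median was 0.70, and 4 of 8 were apart and higher and 0 lower (16.5% and 15.0%). Macrophage-like cells had 4 and 0 of 8 (13.6% and 14.4%). Microglia-like cells were divided, with Fkbp5, Tsc22d3, Zbtb16 and Per1 higher and Sgk1, Ddit4 and Pdk4 lower (4 and 3 of 8, background 24.0% and 23.4%).

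The remaining classes showed shares nearer the background or in the other direction. Choroid plexus-like cells had 3 higher and 3 lower of 8 (19.0% and 20.0%), ependymal-like cells 2 and 0 of 7 (16.4% and 14.6%), and neuroblast-like cells 2 and 2 of 7 (16.0% and 10.6%). T or NK-like cells had 1 and 1 of 6 (11.7% and 15.4%). The S100a9-led cluster had 1 higher and 4 lower of 6 (15.1% and 17.2%), with a median of -0.54. Over all kept cells 5 of 8 were higher and 3 lower (30.6% and 30.9%).

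At least 2-fold higher and lower in CO were 1 and 1 member in microglia-like cells (background 3.53% and 3.98%), where Pdk4 was the lower one, and 2 and 0 in oligodendrocyte-like cells (2.68% and 8.57%). Astrocyte-like cells had 3 and 0 (7.03% and 5.87%), pericyte-like cells 3 and 0 (5.40% and 5.17%), endothelial-like cells 2 and 0 (5.30% and 8.02%) and choroid plexus-like cells 3 and 0 (8.35% and 5.96%). Macrophage-like cells had 1 and 1 (5.30% and 7%), T or NK-like cells 0 and 1 (8.32% and 10.7%), and the S100a9-led cluster 2 and 1 (12% and 16.1%). Ependymal-like (8.27% and 7.10%) and neuroblast-like cells (7.01% and 3.47%) had 0 in either direction. Over all kept cells 1 member, Fkbp5, was 2-fold higher and 0 lower (5.37% and 3.90%).

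**Figure D3:**
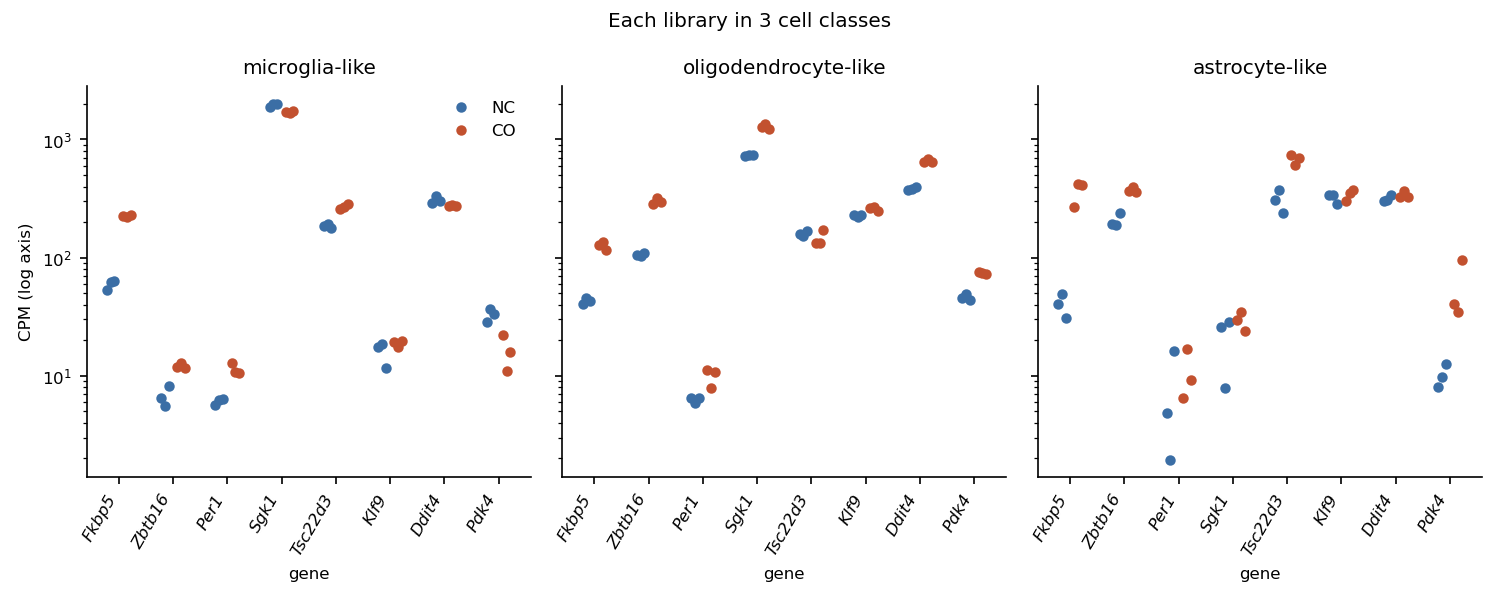
Level (CPM, log axis) of the 8 genes in each NC (blue) and CO (orange) library of the microglia-like, oligodendrocyte-like and astrocyte-like classes. In microglia-like cells Fkbp5 separates the groups widely while Sgk1 lies slightly lower in CO, and in oligodendrocyte-like cells 7 of the 8 genes lie higher in CO.

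Fkbp5 was spread over microglia-like cells rather than confined to a single cluster. The log2 ratio was 1.90, 2.09, 1.88 and 1.66 in clusters 0, 1, 4 and 5 and 1.28 in cluster 6, whose cells had a median of 978 UMIs. Its level was highest in cluster 4, at 96.0 CPM in NC and 353 CPM in CO, the cluster in which Sgk1 was lowest among the deeper ones. In that cluster Per1 was at 3.51 and 14.5 CPM (2.04), Klf9 at 6.59 and 17.2 CPM (1.38) and Zbtb16 at 1.32 and 7.59 CPM (2.53, on 6 NC UMIs). In cluster 5, which was led by Il1a, Zbtb16 (-0.08), Klf9 (-0.40) and Ddit4 (-0.54) were below 0. Oligodendrocyte-like clusters 2 and 11 gave Fkbp5 ratios of 1.48 and 1.71, Zbtb16 ratios of 1.51 and 1.25 and Ddit4 ratios of 0.70 and 0.86. Sgk1 had 0.78 and 0.95 there. The shallow clusters differed. In cluster 19 (median 824 UMIs) Sgk1 had -1.04 (interval -1.48 to -0.62), Ddit4 -0.43 (-1.09 to 0.19), Fkbp5 0.48 (-0.85 to 1.76) and Zbtb16 2.68. In cluster 8 Sgk1 had 0.15, Ddit4 0.10 and Fkbp5 0.89, the last on 4 CO UMIs.

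To compare shares of cells at equal depth, each cell was thinned to 1000 UMIs and shallower cells were left out. An Fkbp5 UMI was then seen in 5.60% of 6837 NC and 18.6% of 7737 CO microglia-like cells (exact binomial intervals 5.07 to 6.17% and 17.8 to 19.5%), with 492 NC and 674 CO cells left out. The unthinned shares were 18.2% and 50.8%. Microglia-like cells with 2 or more thinned UMIs were scarce: 0.512% of NC cells had 2 and 0.0585% had 3, against 2.87% and 0.620% in CO. In astrocyte-like cells the share was 3.18% of 377 NC and 24.5% of 421 CO cells (122 and 234 left out), and in oligodendrocyte-like cells 3.59% of 3927 and 10.3% of 1306 cells (1042 and 230 left out). The lowest NC and CO shares were in endothelial-like cells, at 0.181% and 1.31% with median depths of 4506 and 5356 UMIs, against 4932 and 5652 UMIs in microglia-like cells. In neuroblast-like cells the shares were 2.27% of 485 NC and 2.16% of 1341 CO cells, and their intervals (1.14 to 4.02% and 1.45 to 3.09%) overlapped.

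**Figure D4:**
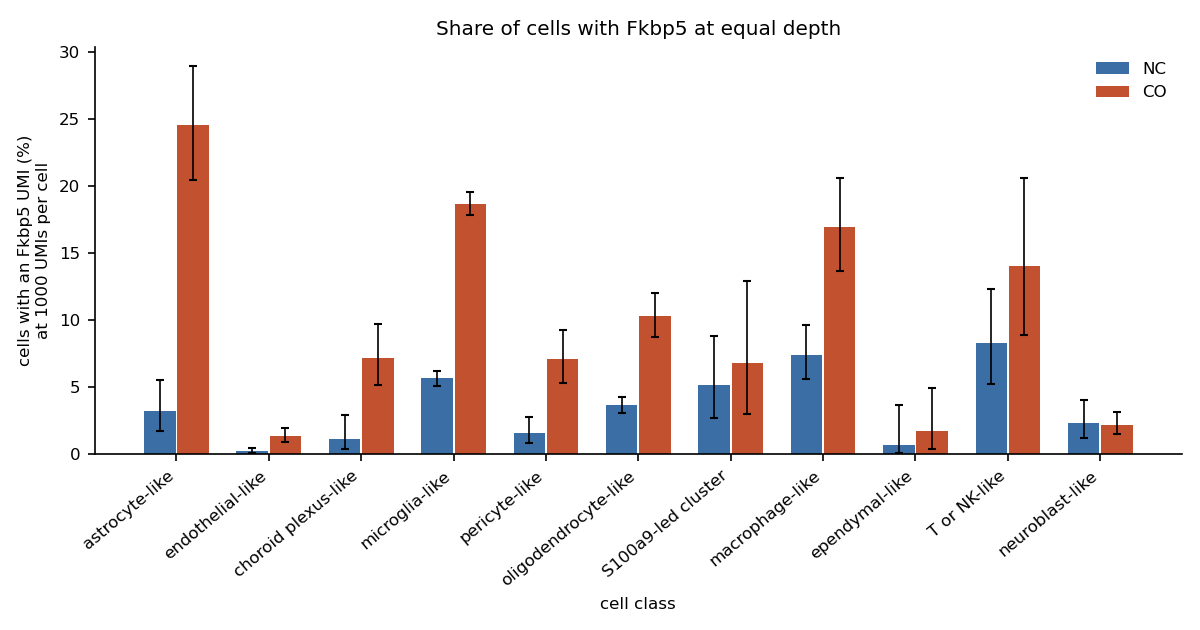
Share of cells with at least 1 Fkbp5 UMI after thinning each cell to 1000 UMIs, by class, NC in blue and CO in orange, with exact 95% binomial intervals of the counts. The CO bar stands highest in astrocyte-like (24.5%) and microglia-like cells (18.6%), and the bars of neuroblast-like cells are about equal.

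Zbtb16 and Sgk1 were read in the same way. Zbtb16 was seen in 8.89% of NC and 26.0% of CO oligodendrocyte-like cells (unthinned 30.7% and 65.5%) and in 13.6% and 25.2% of endothelial-like cells (39.8% and 62.6%). Sgk1 was seen in 46.3% and 61.2% of oligodendrocyte-like cells (71.8% and 84.6%) and in 57.6% and 55.0% of microglia-like cells (75.6% and 75.6%). Within the CO microglia-like cells no other member was seen more often, beyond the exact intervals, in cells with Fkbp5 than in cells without. Tsc22d3 was seen in 19.4% of the 1442 cells with a thinned Fkbp5 UMI and in 21.2% of the 6295 without and Sgk1 in 52.4% and 55.6%. The intervals of Tsc22d3 (17.4 to 21.6% and 20.2 to 22.2%) and Ddit4 (16.3 to 20.3% and 17.0 to 18.9%) overlapped. Of the 1442 cells with Fkbp5, 1151 carried a single UMI of it, so these shares rest on sparse counts.

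Other genes that glucocorticoids induce in some tissue were read from a list of 38, of which 36 had rows. In astrocyte-like cells 22 of the 26 that entered were above 0, with a median log2 ratio of 0.50 against 0.02 for all genes, and 14 were higher and 3 lower without overlap (16.5% and 15.0% of all genes). Mt1, a metal-binding metallothionein, was at 31.9 CPM in NC and 138 CPM in CO (2.11), and Cebpb, a transcription factor of the acute phase response, at 54.4 and 188 CPM (1.79). Klf4 was lower (-1.98). In endothelial-like cells 22 of 32 were above 0 (median 0.33 against 0.00), led by Mt2A at 67.8 and 674 CPM (3.31), the kinase gene Map3k6 at 11.4 and 60.4 CPM (2.40) and the iron carrier gene Lcn2 at 40.6 and 180 CPM (2.15). Sult1a1 was lower there, at 215 and 85.5 CPM (-1.33).

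In microglia-like, oligodendrocyte-like and pericyte-like cells the same list had lower medians. Microglia-like cells had 20 of 32 above 0 with a median of 0.05, and 10 higher and 9 lower without overlap, against 24.0% and 23.4% of all genes. The highest was Hif3a, an inhibitory member of the hypoxia-inducible factor family, at 0.322 CPM in NC and 8.42 CPM in CO (4.71, interval 3.89 to 5.68), and the lowest Trim63 (-0.91). Oligodendrocyte-like cells had 16 of 31 above 0 with a median of 0.01, and 11 higher and 7 lower without overlap (18.3% and 20.3% of all genes). There Hif3a (2.70, interval 2.12 to 3.31) and the cell cycle inhibitor Cdkn1a (82.1 and 212 CPM, 1.37) were highest, and Aqp1 (-2.78) and Angptl4 (-2.08) lowest. Aqp1 is also 1 of the 10 choroid plexus markers, which summed to 5063 CPM in NC and 1560 CPM in CO in that class. The part of such RNA in the Aqp1 ratio was not tested. Pericyte-like cells had 18 of 32 above 0 (median 0.17), and 14 higher and 7 lower without overlap (17.8% and 15.9% of all genes). Mt2A was at 9.30 and 169 CPM there (4.18) and the chemokine receptor gene Cxcr4 at 97.2 and 15.0 CPM (-2.70).

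Inflammatory genes that glucocorticoids repress (22 of 24 with rows) did not move as a block. In oligodendrocyte-like cells all 17 that entered were below 0 (median -1.46), among them the chemokine genes Cxcl1 (25.2 and 1.82 CPM, -3.79) and Ccl2 (14.4 and 1.62 CPM, -3.16). Microglia markers in that class were lower in CO as well (3.66% and 2.09% of the microglia-like level), and their part in these ratios was not tested. In microglia-like cells 9 of 19 were above 0 and 10 below, with a median of -0.00. The cyclooxygenase gene Ptgs2 was at 17.0 and 27.9 CPM (0.72, groups overlapping) and Cxcl1 at 80.3 and 56.2 CPM (-0.51). In endothelial-like cells 8 were above and 9 below 0 (median -0.81), with the adhesion gene Vcam1 at 201 and 43.9 CPM (-2.19) and Il6 at 6.11 and 16.3 CPM (1.41). The choroid plexus-like class had a median of 1.59, beside microglia markers (12 of 12 above 0) of 149 to 296 CPM in NC and 512 to 818 CPM in CO. The part of those markers was not tested.

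Genes of the receptor machinery, which fold the receptor, supply hormone or assist it at DNA, had medians slightly below 0 in most classes. The median was above 0 only in astrocyte-like (0.04) and ependymal-like cells (0.05). It was lowest in the S100a9-led cluster (-0.58) and choroid plexus-like cells (-0.29), with -0.17 in macrophage-like and -0.13 in oligodendrocyte-like cells. In microglia-like cells 12 of the 19 that entered were below 0 (median -0.12), and 11 were lower and 4 higher without overlap, against 23.4% and 24.0% of all genes. Nr3c2, the mineralocorticoid receptor that binds the same hormone with higher affinity, had 16.2 and 10.3 CPM there (-0.65). It was at 233 and 118 CPM in astrocyte-like cells (-0.98) and at 146 and 111 CPM in endothelial-like cells (-0.40). In microglia-like cells the Hsp90 co-chaperone gene Stip1 had 441 and 335 CPM (-0.39). In pericyte-like cells 13 of 19 were below 0 (median -0.17), and in endothelial-like cells 13 of 19 (median -0.14).

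**Figure D5:**
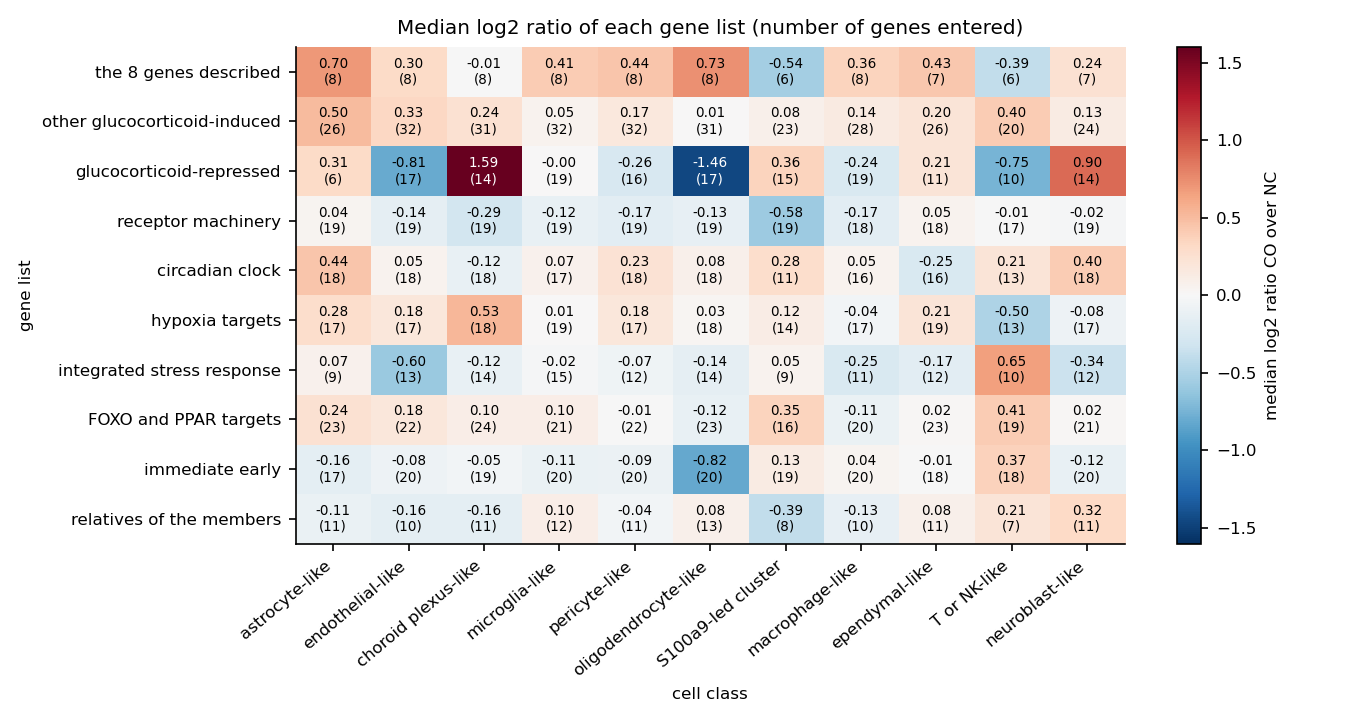
Median log2 ratio of CO over NC for 10 gene lists (rows) in 11 classes (columns), with the number of genes that entered in parentheses. The other glucocorticoid-induced genes have their highest median in astrocyte-like cells (0.50), and the glucocorticoid-repressed genes run from 1.59 in choroid plexus-like to -1.46 in oligodendrocyte-like cells.

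Lists for the other signals that reach these genes differed by class. Of the clock genes other than Per1, microglia-like cells had Per2 at 17.8 and 31.4 CPM (0.82) and Per3 at 44.2 and 73.0 CPM (0.72), and there 10 of 17 were above 0. Per2 was also higher in endothelial-like (0.88) and pericyte-like cells (0.80). Hypoxia targets other than Ddit4 had 10 of 19 above 0 in microglia-like cells (median 0.01) and 12 of 18 in oligodendrocyte-like cells (median 0.03), the class in which Ddit4 was higher. In endothelial-like cells, in which Ddit4 hardly differed, 10 of 17 were above 0 (median 0.18). Ndrg1 was at 899 and 4235 CPM there (2.24) and the glucose transporter gene Slc2a1 at 2812 and 5106 CPM (0.86), while Ankrd37 (-0.87), P4ha1 (-0.85) and Bnip3l (-0.45) were lower. Targets of the integrated stress response other than Ddit4 had 6 of 14 above 0 in oligodendrocyte-like cells (median -0.14). Among the FOXO and PPAR targets, in the astrocyte-like class with high Pdk4, 16 of 23 were above 0 (median 0.24), with Txnip at 36.7 and 71.1 CPM (0.95) and Angptl4 at 59.8 and 36.5 CPM (-0.71).

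Immediate early genes, which the digestion of tissue also induces, were read as a sign of handling. In oligodendrocyte-like cells all 20 that entered were below 0 (median -0.82), 15 of them without overlap (20.3% of all genes were lower without overlap), for example Ier3 at 133 and 49.4 CPM (-1.43). In microglia-like cells 16 of 20 were below 0 (median -0.11), with Nr4a1 at 898 and 560 CPM (-0.68). In endothelial-like cells the median was -0.08. The part of this in the member ratios was not tested.

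Close relatives of the members were measured alongside them. Klf13, a close relative of Klf9, was higher in CO and apart in 10 of 11 classes, the S100a9-led cluster being the exception (-0.00). The share of all genes higher and apart was 11.7% to 25.2% by class. Its levels were 101 and 179 CPM in microglia-like cells (0.82), 20.1 and 52.4 CPM in astrocyte-like cells (1.38) and 284 and 363 CPM in oligodendrocyte-like cells (0.35). Klf9 in the same classes had 0.25, 0.12 and 0.20. Fkbp4, which encodes FKBP52, the related co-chaperone that takes the place of FKBP51 when hormone binds, was lower in CO in several classes with higher Fkbp5: -0.38 in microglia-like, -0.77 in endothelial-like, -0.78 in pericyte-like and -0.24 in oligodendrocyte-like cells, all without overlap. In astrocyte-like cells Fkbp4 overlapped (0.25). Tsc22d1 was at 62.8 and 163 CPM in oligodendrocyte-like cells (1.38), the class in which Tsc22d3 overlapped, and Tsc22d2 was lower in microglia-like cells (-0.56). Pdk3 was lower in astrocyte-like cells, at 18.9 and 6.55 CPM (-1.53), where Pdk4 was higher. Sgk2 entered in oligodendrocyte-like cells, with 0.73 (interval 0.46 to 1.00), and Sgk3 there had 0.16 with overlap.

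Across the 11 classes the log2 ratios of Fkbp5 were compared with those of the 4747 genes that entered in every class. The closest by Pearson's r, as a description over 11 points that share libraries and depth, were Hacd2 (0.956), Dennd5a (0.915), Elk4 (0.893), Atp6v1e1 (0.888) and Tmbim6 (0.888). Hacd2 ran from -0.72 in ependymal-like to 1.02 in astrocyte-like cells, and Elk4 from -0.47 in macrophage-like and neuroblast-like to 1.00 in astrocyte-like cells. Among the members r was 0.593 for Tsc22d3, 0.412 for Ddit4, 0.356 for Zbtb16, 0.315 for Klf9 and 0.238 for Sgk1. Per1 and Pdk4 did not enter in every class.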

How the data were processed

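Counts were unique molecular identifiers per gene and barcode, made by the authors; the submitters' processing notes name Cell Ranger, with no version, and the build Rnor_6.0. The deposited counts covered 42293 barcodes in 6 libraries (3 NC, 3 CO) and no mitochondrially encoded gene, so RNA quality could not be read from them. Of all pairs of libraries, 1 barcode was shared.

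Barcodes with under 500 UMIs or 200 genes (4266) were left out. Scrublet doublets were removed (1485). It marked 2 barcodes in each of CO replicates 1 and 3, fewer than 0.5%, so there the 6% with the highest scores were removed. Cells were clustered with scanpy 1.11.5 and leidenalg 0.10.2 (2000 variable genes without the members, 30 components, 15 neighbours, resolution 1) into 41 clusters, of which 4 stayed unnamed. A name needed at least 3 detected markers and had to lead among the top 10 genes. How ties in naming were settled, and the label of the S100a9-led cluster, were chosen after the data were seen.

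Counts were summed per class and group, scaled by edgeR 4.0.16 TMM factors in R 4.3.3, and compared as log2 ratios with 95% exact binomial intervals (scipy 1.17.1). A group with 0 counts was set to 3 counts over the group. A gene entered a class with 30 counts over both groups, and 82 of 88 pairs of member and class did. No test was run, since the libraries of a group counted as 1 sample and the members were chosen on this contrast. The members and lists were chosen with earlier results of these data known. The text names all members, their relatives, the 3 highest and 3 lowest genes of each other list per class at most, and the 5 genes most like Fkbp5. The calculation was tested on simulated data. Alternatives were DESeq2 1.42.0 size factors, total counts, equal library weights, thinned cells, cells of at least 2000 UMIs, doublets kept, a marker gate, resolution 0.5, no minimum count, and each library left out.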

Additional observations from a re-analysis of the deposited data

Results flagged for a closer look

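For 6 genes the libraries did not overlap in either of a pair of classes, but CO was higher in one class and lower in the other. Each pair is the class with the highest and the class with the lowest such ratio. By class, 11.7% to 25.2% of all genes were higher in CO and apart, and 10.6% to 24.2% lower and apart. How many of all genes have such a pair was not counted. The difference between classes was not tested. Tsc22d3 had a log2 ratio of CO over NC of 1.14 in astrocyte-like cells and -0.59 in neuroblast-like cells. Sgk1 had 0.80 in oligodendrocyte-like and -0.20 in microglia-like cells. Zbtb16 had 2.32 in choroid plexus-like cells, where the depth per cell differed between groups, and -2.65 in T or NK-like cells, on 139 and 14 UMIs. Klf9 had 0.28 in endothelial-like cells and -1.57 in the S100a9-led cluster, whose cells differed in makeup. Ddit4 had 0.77 in oligodendrocyte-like cells and -0.62 in the same S100a9-led cluster. Pdk4 had 2.53 in astrocyte-like and -1.01 in microglia-like cells.

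Barcodes that entered no comparison were read for the same genes, and 9 of 24 pairs of gene and barcode set had no overlap between libraries, 5 higher and 4 lower in CO. The share of all genes in these barcode sets was not counted. Over all kept cells, 30.6% of all genes were higher and 30.9% lower without overlap, so the count itself does not set the members apart. Fkbp5 had a log2 ratio of 2.19 in barcodes left out for few UMIs or genes (20.4 and 93.0 CPM, on 18 and 70 UMIs). It had 1.80 in barcodes called doublets (36.8 and 128 CPM) and 1.00 in clusters not compared (121 and 241 CPM). In doublets Per1 had 1.00 (4.05 and 8.08 CPM) and Zbtb16 had 0.83 (112 and 200 CPM). Lower in CO were Klf9 (-1.07) and Ddit4 (-0.48) in barcodes left out for few UMIs or genes, Klf9 in doublets (-0.36) and Pdk4 in clusters not compared (-0.86).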

How the results depend on the processing

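No paired analysis was run, since the sample labels give no pairing of NC with CO libraries. The values come from no test, and the libraries of a group were counted as 1 sample. Of 82 ratios of member and class, 62 kept their sign under every alternative that gave a value, among them 10 of 11 for Fkbp5 and 5 of 11 for Sgk1. The Fkbp5 ratio in microglia-like cells (1.92) was 1.85 with total counts, 2.01 in thinned cells and 1.85 to 1.97 with each library left out. With cells thinned to 1000 UMIs the sign turned for Fkbp5 in neuroblast-like cells (-0.08), Tsc22d3 in T or NK-like (0.04) and choroid plexus-like cells (1.01), Sgk1 (1.13) and Ddit4 (0.92) in choroid plexus-like cells, Zbtb16 in the S100a9-led cluster (0.20) and ependymal-like cells (-1.18), and Pdk4 in pericyte-like cells (-0.64). With the marker gate it turned for Tsc22d3 in T or NK-like cells (0.00) and Sgk1 in ependymal-like (-0.10) and neuroblast-like cells (0.24), the last also at resolution 0.5 (0.46). For 10 more pairs, most with ratios near 0, at least 1 alternative gave the other sign or 0. The farthest values were -0.42 for Klf9 in macrophage-like cells, -0.76, -0.46 and -0.25 for Sgk1 in T or NK-like, astrocyte-like and macrophage-like cells, and -0.16, -0.10 and -0.02 for Ddit4 in macrophage-like, endothelial-like and astrocyte-like cells. They were -0.22 and -0.05 for Per1 in pericyte-like and endothelial-like cells and 0.23 for Pdk4 in ependymal-like cells. The cause was not tested. Unthinned, 18.2% of NC and 50.8% of CO microglia-like cells had an Fkbp5 UMI. Windows of members with a glucocorticoid response element numbered 1 with 3 mismatches and 0 with fewer. Another scaling shifted all ratios by over 0.1 in the S100a9-led cluster (0.22) and endothelial-like cells (0.12). Per1 and Pdk4 each missed the minimum count in 3 of 11 classes.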
